A study of Mus musculus with 24 samples.

Results

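The genes described here encode the subunits of the proteasome, and were picked by symbol (Psma, Psmb, Psmc, Psmd or Psme and a number). Of 18193 mouse genes with a probe set that names 1 gene, 44 matched, and 42 of these are proteasome genes. *Psmc3ip* and *Psme3ip1* carry a subunit's name but encode no subunit, and are kept out of the counts. Each gene was represented by its brightest probe set over 24 Affymetrix arrays, and 40 of the 42 genes passed the filter on dim signals. The tested genes are 7 of the alpha ring and 7 of the standard beta ring of the 20S core, 3 of the immunoproteasome, 6 ATPases, 11 other subunits and 3 assembly factors of the 19S particle, and 3 activators. The 2 genes that did not pass, *Psma8* and *Psmb11*, encode core subunits known from testis and thymus. *Psme2* shares its probe set with *Psme2b* and was not analysed here.

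The proteasome is the protease that degrades ubiquitin-tagged proteins. Its 20S core is a barrel of alpha rings, which gate the entry, around beta rings, whose subunits Psmb5, Psmb6 and Psmb7 cut peptide bonds, and the 19S particle binds, unfolds and feeds in the substrate with a ring of ATPases. Interferon induces Psmb8, Psmb9 and Psmb10, which replace the standard catalytic subunits in newly built cores and shift the peptides towards those shown on class I molecules. In heart muscle the proteasome removes misfolded and damaged sarcomere proteins, and the muscle ligase Trim63 marks several of them.

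Whole hearts of FVB/N mice were measured in 6 groups of 4 arrays. The groups were caPI3K MI and caPI3K sham (a constitutively active PI3K transgene), dnPI3K MI and dnPI3K sham (a dominant negative PI3K transgene), and nontransgenic Ntg MI and Ntg sham. MI stands for a myocardial infarction operation, done at 4 months of age like the sham operation, with the heart taken 8 weeks later. The labels give the transgenes as expressed in the heart and the dnPI3K model as cardiac-specific; the sources used here name neither the promoter that drives them nor the sex of the animals. On the caPI3K MI samples 1 tag name reads sham, while titles, descriptions and the tag's own text give MI, which was used. Hearts were homogenized one by one, but no label ties each array to its own animal. The p-values below therefore set differences of group means against the scatter of these arrays, and part of that scatter may be technical. In whole hearts, fewer cells of a type and less RNA per cell cannot be told apart.

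All 10 cardiomyocyte markers were above the 40th percentile of signal on every array, with *Myh6* between 49116 and 77857 signal units. Over all pairs of the 24 arrays, log2 values correlated at 0.91 to 0.96 across genes. Array numbers here are the numbers in the sample titles, which do not say what they count. Some arrays stood apart. Arrays 415 to 418 (replicates 1 and 2 of Ntg sham and of dnPI3K sham) had the highest 99th percentiles of signal among the 24, 18709 to 20892. The median signal was 151 on dnPI3K MI replicate 1, the highest of the 24. Replicates 1 to 3 of caPI3K sham carried Y-linked signal with *Xist* at 6.77 to 7.08 log2 units, against 12.65 or more on the other arrays. The 99th percentile of signal was lower in dnPI3K MI hearts (16141 to 17234) than in dnPI3K sham hearts (18260 to 20892). The part of these features in the results below was not tested, other than by the alternatives named beside a result.

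Values are log2(signal + 11.2), where 11.2 is a pseudocount, and are called log2 units. A change is a difference of group means in a linear model (limma) with its standard error (SE), and a gene is called when its p-value, adjusted over all 14763 genes tested by the Benjamini-Hochberg method, is below 0.05. Levels of different genes are not compared, since each probe set has its own scale.

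The clearest change was in infarcted dnPI3K hearts, where 11 of the 40 proteasome genes fell against dnPI3K sham hearts and 0 rose. Of all genes tested, 9.37% were called in this comparison, 5.18% lower and 4.19% higher. The genes that fell were 6 of the 7 standard beta subunits, 1 of the 7 alpha subunits, 2 of the 6 ATPases, 1 of the 11 other 19S subunits and the activator gene *Psme1*. The median change over the 40 genes was -0.12 log2 units, against 0.01 over all genes. In 12 of the 40 the MI and sham arrays did not overlap, a pattern found in 13.4% of all genes. An unadjusted p below 0.05 was found for 15 of 40, against 21.9% of all genes. After quantile normalization, 6 proteasome genes were lower and 1, *Psme4*, higher. Shares of all genes are given for the fit described above and not for such alternatives.

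*Psmb7* encodes the subunit with trypsin-like activity. Its signal was 13.69, 13.44, 13.34 and 13.62 log2 units in dnPI3K MI hearts, against 14.24, 14.05, 14.04 and 14.08 in dnPI3K sham hearts. The 4 dnPI3K MI arrays lay below the other 20 arrays of the study. The change was -0.58 ± 0.08 log2 units (SE), or 0.67-fold (adjusted p = 8.08e-05, limma). *Psmb7* read 13.90, 14.10, 14.16 and 14.05 in Ntg MI hearts, against 14.26, 14.27, 14.07 and 14.06 in Ntg sham hearts. In caPI3K MI hearts it read 14.02, 14.13, 13.95 and 14.02, against 14.18, 14.10, 14.09 and 14.12 in caPI3K sham hearts. Neither of these MI changes passed the test, at -0.09 ± 0.08 in caPI3K hearts and -0.11 ± 0.08 in Ntg hearts (adjusted p = 0.706 and 0.642, limma).

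*Psmb3* encodes a beta subunit without catalytic activity. It read 12.48, 12.40, 12.47 and 12.62 in dnPI3K MI hearts, against 13.05, 12.86, 12.81 and 12.78 in dnPI3K sham hearts. The groups did not overlap, and the change was -0.38 ± 0.07 (adjusted p = 0.00118, limma). *Psmb6*, the subunit with caspase-like activity, read 12.42, 12.25, 12.30 and 12.31 in dnPI3K MI hearts, against 12.65, 12.59, 12.59 and 12.57 in dnPI3K sham hearts. Its groups were separate too, with a change of -0.28 ± 0.06 (adjusted p = 0.00215, limma). *Psmb2* fell by 0.24, *Psmb4* by 0.22 and *Psmb1* by 0.21 log2 units, all 3 structural beta subunits, with adjusted p of 0.00938, 0.0193 and 0.0496 in the same fit. *Psmb1* rests on 1 of its 3 probe sets: the 2 dimmer ones gave 0.16 and 0.67 in the opposite direction.

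*Psmb5*, which carries the chymotrypsin-like activity, was the standard beta subunit that was not called. It read 12.29, 12.44, 12.38 and 12.42 in dnPI3K MI hearts, against 12.48, 12.21, 12.48 and 12.30 in dnPI3K sham hearts. The arrays of the groups overlapped, with a change of 0.02 ± 0.07 and a 95% interval of -0.13 to 0.17. Of the catalytic subunits, *Psmb6* and *Psmb7* therefore fell in the fit while the interval of *Psmb5* spans 0.

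**Figure D1:**
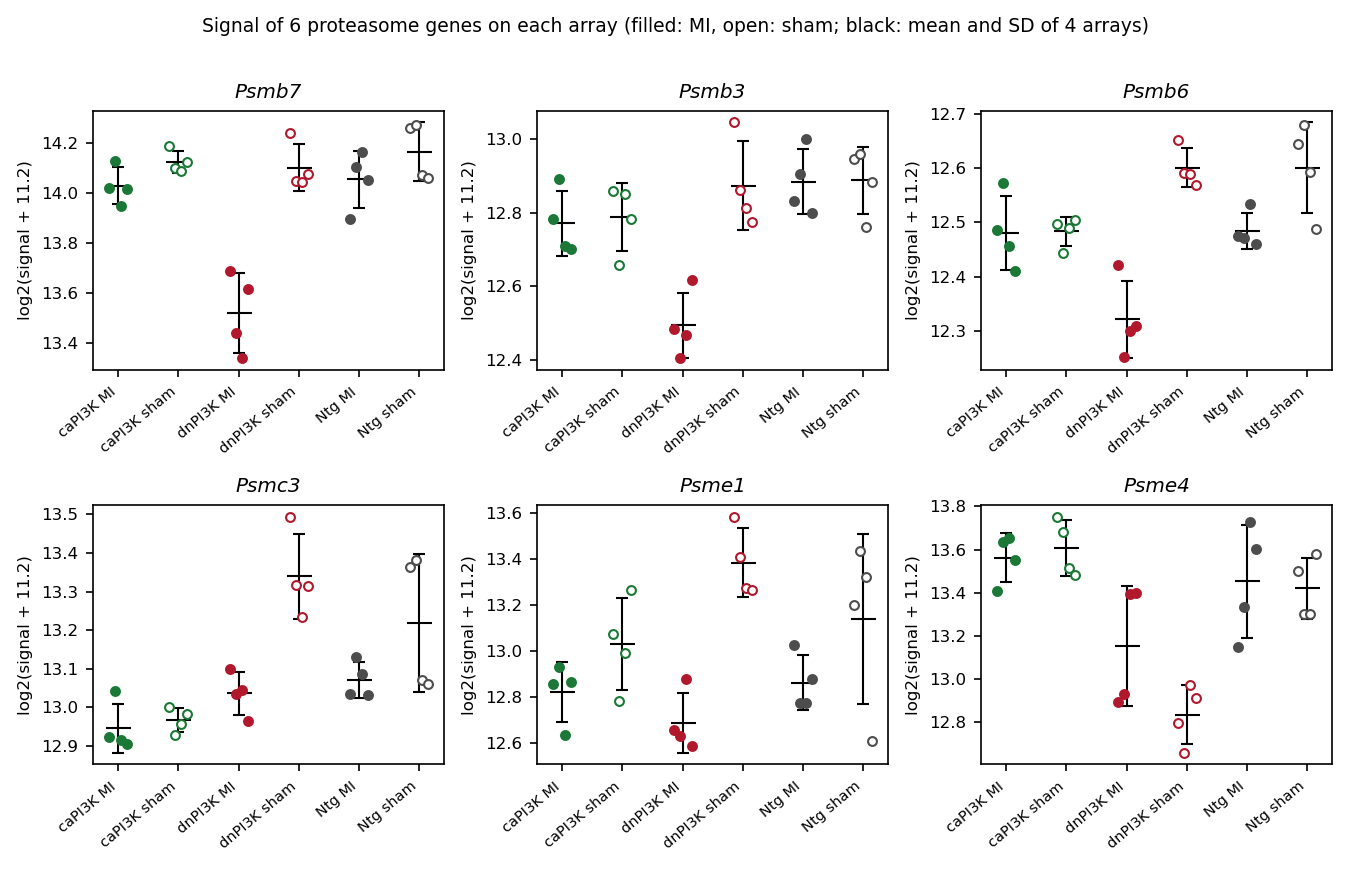
Signal of 6 proteasome genes on each array in log2(signal + 11.2), by group; filled points are MI hearts, open points sham hearts, and the black marks the mean and SD of 4 arrays. The 4 dnPI3K MI arrays of *Psmb7* and *Psmb3* lie below all other arrays, and *Psme4* is lowest in dnPI3K sham hearts.

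Promoters are shown for the beta subunit genes *Psmb6* and *Psmb3*, which fell, and for *Psmb5*, which was not called. *Psmb7*, *Psmb1* and *Psmb2* have no entry in the RefSeq promoter table. *Psmb4*, which also fell, has an entry but holds none of the motifs named below, and is not printed. The sequences are of assembly GRCm38.p6, printed 5′ to 3′ on the gene's strand, and positions count from the start site in that table. Capitals in *Psmb5* and *Psmb6* mark the core of the antioxidant response element, TGACNNNGC, the site read by Nfe2l1 and Nfe2l2, factors known to drive proteasome genes. Capitals in *Psmb3* mark a CCAAT box and a core of the interferon-stimulated response element (GAAA, any 2 bases, GAAA), read on the opposite strand.
*Psmb6* promoter, chr11:70525267-70525366, plus strand: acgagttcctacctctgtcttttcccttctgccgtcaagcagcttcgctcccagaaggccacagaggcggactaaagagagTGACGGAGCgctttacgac
*Psmb5* promoter, chr14:54617986-54618085, minus strand: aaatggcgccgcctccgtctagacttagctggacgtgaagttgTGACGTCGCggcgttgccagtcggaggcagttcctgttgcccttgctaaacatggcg
*Psmb3* promoter, chr11:97703234-97703383, plus strand: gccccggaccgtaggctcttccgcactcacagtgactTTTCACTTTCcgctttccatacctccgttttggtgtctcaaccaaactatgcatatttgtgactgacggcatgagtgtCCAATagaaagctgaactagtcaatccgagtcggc
The antioxidant core starts at position -9 in *Psmb6* and at position -47 in *Psmb5*, so it is found in a gene that fell and in one that was not called. Both strands of the 300 bases around each start site (250 before, 50 after) were searched, and no match of 1 motif overlapped a match of another in the printed sequences. The antioxidant core was found in 12.4% of 32851 windows in the table and in 6 of the 35 proteasome genes with a window, the CCAAT box in 37.4% and 14 of 35, and the interferon element in 3.44% and 4 of 35. Of the 11 genes that fell in dnPI3K MI hearts 7 have a window, and 2 of these hold the antioxidant core, 3 the CCAAT box and 2 the interferon element. Of the other 29 genes 27 have a window, and 4, 10 and 2 of these hold them. A match is a string of letters and not a shown binding site.

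The alpha ring gates the core. All 7 of its genes had a negative change in dnPI3K hearts and 1, *Psma7*, was called at -0.23 ± 0.07 (adjusted p = 0.0291, limma). *Psma7* read 12.65, 12.66, 12.67 and 12.65 in dnPI3K MI hearts, against 12.97, 12.94, 12.91 and 12.76 in dnPI3K sham hearts, with no overlap. *Psma6* had a change of the same size, -0.23 ± 0.09, with a wider spread (adjusted p = 0.100, limma); with a term for array numbers under 1000 it was called (-0.28, adjusted p = 0.00903). The other 5 lay between -0.17 and -0.01.

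Among the ATPases, which unfold the substrate, *Psmc3* and *Psmc2* fell. *Psmc3* read 13.10, 13.03, 13.05 and 12.96 in dnPI3K MI hearts, against 13.49, 13.32, 13.23 and 13.31 in dnPI3K sham hearts, a change of -0.30 ± 0.07 (adjusted p = 0.00723, limma). The arrays did not overlap, but the dnPI3K MI values lay within the range of the other MI groups: *Psmc3* read 13.03, 13.13, 13.09 and 13.03 in Ntg MI hearts. Ntg sham hearts read 13.36, 13.38, 13.07 and 13.06, so 2 of them reached the dnPI3K sham range. *Psmc2* changed by -0.22 ± 0.07 (adjusted p = 0.0413, limma), and *Psmc5* had the largest positive value of the class, 0.10 ± 0.08.

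The 11 other 19S subunits include ubiquitin receptors, a deubiquitinase and subunits of the lid. *Psmd12*, a lid subunit, fell by 0.18 log2 units (adjusted p = 0.0420, limma), and 7 of the 11 had positive values. The ubiquitin receptors *Psmd2* and *Psmd4* changed by -0.11 ± 0.07 and -0.13 ± 0.07, and the deubiquitinase *Psmd14* by 0.05 ± 0.08, none called. The median was 0.01 for these 11 genes, against -0.24 for the 7 standard beta genes and -0.18 for the 6 ATPases. The difference between classes was not tested.

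**Figure D2:**
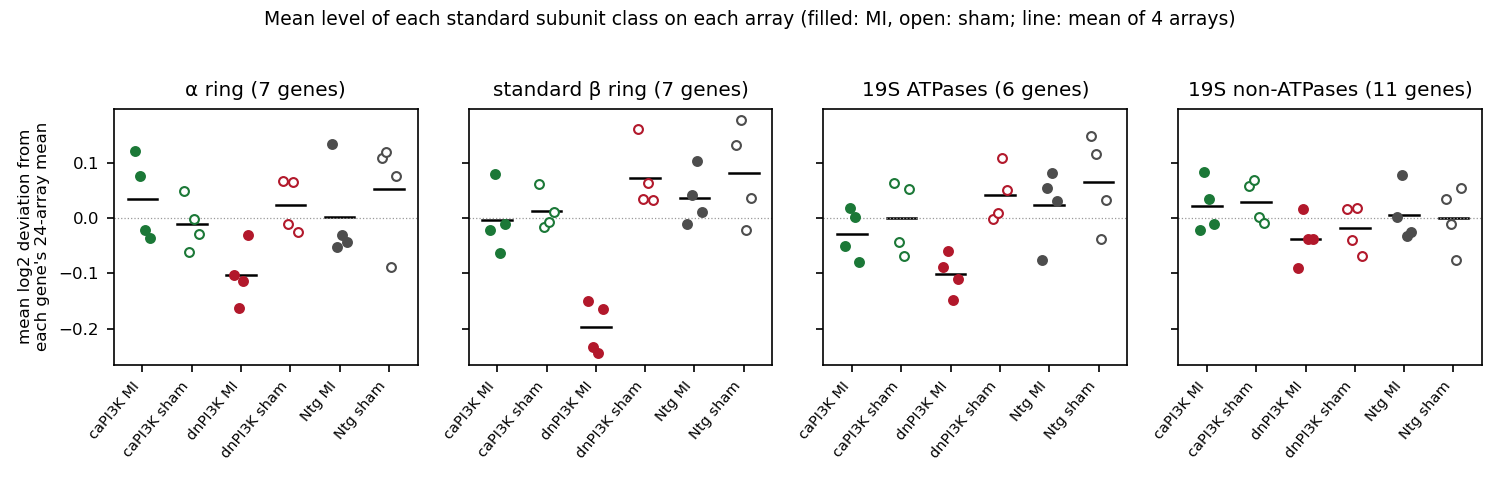
Mean deviation of each standard subunit class from its genes' 24-array means, in log2 units, per array; filled points are MI hearts, open points sham hearts, lines the mean of 4 arrays. The beta ring lies at -0.24 to -0.15 on the dnPI3K MI arrays, below every other array, while the non-ATPase subunits of the groups overlap.

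Averaged over its 7 genes, the beta ring deviated from the 24-array mean by -0.24 to -0.15 log2 units on the dnPI3K MI arrays, against 0.03 to 0.16 on the dnPI3K sham arrays. The mean over all 31 standard 20S and 19S genes was -0.12 to -0.08 on the dnPI3K MI arrays and -0.06 to 0.09 on the other 20. The averages are descriptions with no test.

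The activators dock on the ends of the core in place of the 19S particle. *Psme1*, a subunit of the interferon-inducible PA28 ring, had the largest drop of all members. It read 12.66, 12.63, 12.88 and 12.59 in dnPI3K MI hearts, against 13.58, 13.41, 13.27 and 13.26 in dnPI3K sham hearts. The groups did not overlap, and the change was -0.70 ± 0.13, or 0.62-fold (adjusted p = 0.000820, limma). *Psme3*, which forms the nuclear PA28 ring, changed by -0.10 ± 0.09 and was not called. *Psme4* is described further on.

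Without arrays 415 to 418, 6 genes were called: *Psmb7*, *Psmb3*, *Psmb6*, *Psmb2*, *Psmc3* and *Psme1*. Without dnPI3K sham replicate 1, without dnPI3K sham replicate 2 and without dnPI3K MI replicate 4, the count was 6 each time, and without dnPI3K sham replicate 3 it was 7. *Psmb7*, *Psmb3*, *Psmb6*, *Psmc3* and *Psme1* were called under all 18 alternatives. Some alternatives left these changes as they were and could not test them. Averaging probe sets or taking the second-brightest did not alter those of *Psmb7*, *Psmb6*, *Psmc3* and *Psme1*. Leaving out the caPI3K sham arrays with Y-linked signal altered none of them. The tally was 2 of 18 for *Psmb1*, 3 for *Psmc2*, 6 for *Psma7*, 7 for *Psmd12*, 11 for *Psmb4* and 17 for *Psmb2*. Over these alternatives the *Psmb4* value ranged from -0.24 to -0.10. Cell type markers moved in the same comparison. The summed signal of the 10 cardiomyocyte markers was 383788 to 427303 in dnPI3K MI hearts, against 429640 to 559335 in dnPI3K sham hearts, with 2 of 10 called lower. That of the 10 fibroblast markers was 101911 to 122631, against 79122 to 91535, with 5 of 10 called higher. Both adipocyte markers tested were called lower, *Adipoq* at -1.29 and *Car3* at -1.36. Their summed signal overlapped, at 738 to 7359 in dnPI3K MI hearts, against 4712 to 8084 in dnPI3K sham hearts. The part of these cell type markers in the fall of the subunits was not tested. The same 10 cardiomyocyte markers summed to 397587 to 427881 in Ntg MI hearts, against 427341 to 557648 in Ntg sham hearts.

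In Ntg and caPI3K hearts 0 proteasome genes were called after MI. In Ntg hearts 1 of 40, *Psme1*, had an unadjusted p below 0.05, where 0.772% of all genes were called and 12% had such a p. The Ntg MI and sham arrays overlapped in each of the 40 genes, and did not in 4.72% of all genes. *Psme1* read 13.02, 12.77, 12.77 and 12.88 in Ntg MI hearts, against 13.20, 13.43, 13.32 and 12.61 in Ntg sham hearts. The low Ntg sham array, replicate 4, lies apart from the other 3, and without it the change was -0.46 and called (adjusted p = 0.00781, limma), against -0.28 ± 0.13 with it (adjusted p = 0.375). In that replicate the fibroblast markers summed to the highest value of its group.

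The median over the 40 genes was 0.00 in caPI3K and -0.01 in Ntg hearts. The lowest values in Ntg hearts were -0.28 for *Psme1* and -0.15 for *Psmc3*, and the highest 0.27 for *Psmb8* and 0.28 for *Psmb9*. In caPI3K hearts 3 of 40 had an unadjusted p below 0.05 (12.1% of all genes) and 3 did not overlap (9.36% of all genes), with 1.11% of all genes called. They ranged from -0.21 for *Psme1* and -0.18 for *Psmd11*, a lid subunit, to 0.22 for *Psmb10* and 0.32 for *Psmb8*. The *Psmb8* value was 0.04 without caPI3K MI replicate 4, and its sign turned, to -0.59, without the 3 caPI3K sham arrays with Y-linked signal. That setting leaves only caPI3K sham replicate 4, which held the highest *Psmb8* signal of its group, 10.51 log2 units. The turn therefore rests on that array.

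**Figure D3:**
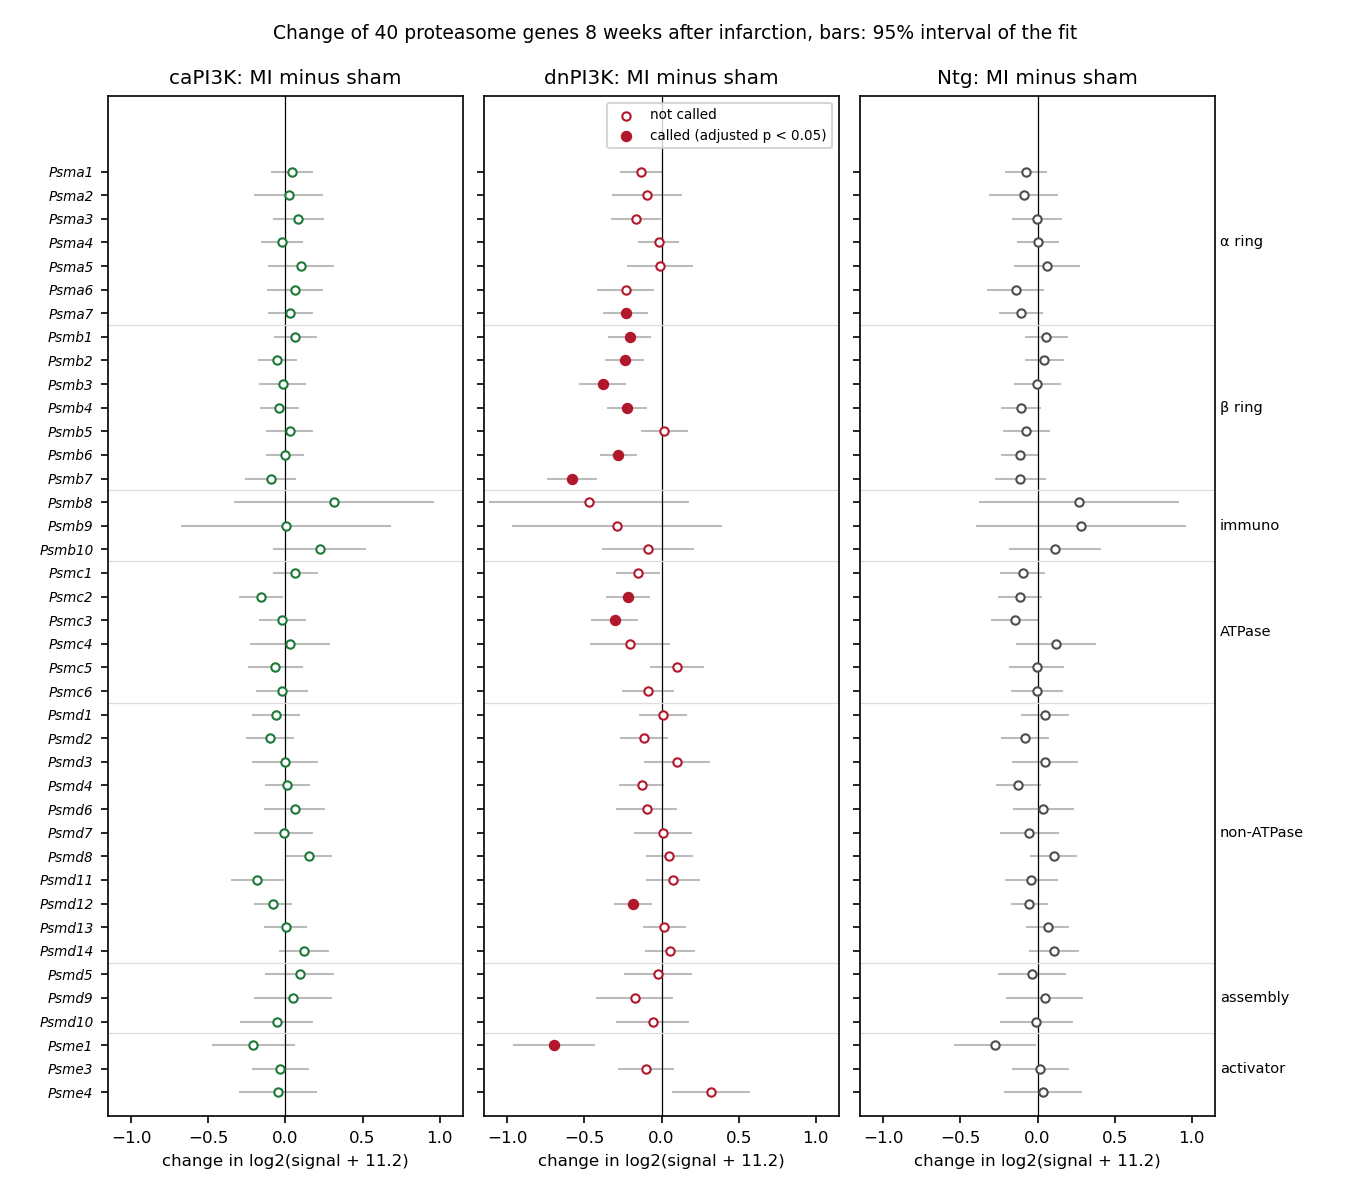
Change after MI of 40 proteasome genes in caPI3K, dnPI3K and Ntg hearts, in log2(signal + 11.2), with 95% intervals of the fit; filled points were called. All 11 called genes are in dnPI3K hearts and have negative values, and the intervals of *Psmb8* and *Psmb9* are the widest.

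A gene called in dnPI3K hearts and not in the others is not shown to respond differently, so the differences between MI changes were tested. For dnPI3K minus Ntg 0 of 40 genes were called, as were 0% of all genes. An unadjusted p below 0.05 was found for 5 of 40 (7.6% of all genes), all with negative values: *Psmb7* (-0.47 ± 0.11), *Psmb3* (-0.38 ± 0.10), *Psmb2*, *Psmb1* and *Psme1*. The smallest adjusted p was 0.356, for *Psmb7* (limma). For caPI3K minus dnPI3K 0 were called, again with 0% of all genes, and 14 of 40 had an unadjusted p below 0.05 (10.2% of all genes), among them 6 of the 7 standard beta genes. *Psmb7* differed by 0.48 ± 0.11 (adjusted p = 0.102, limma). When only the 4 groups of that comparison were fitted, *Psmb7* passed (adjusted p = 0.0420). For caPI3K minus Ntg 0 were called, with 0% of all genes, and 0 of 40 had an unadjusted p below 0.05 (5.53% of all genes). These comparisons share arrays.

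Infarcted hearts were also compared directly. In dnPI3K MI against Ntg MI hearts, 2 of 40 genes were lower, *Psmb7* by -0.53 ± 0.08 and *Psmb3* by -0.39 ± 0.07 (adjusted p = 0.000245 and 0.00265, limma), where 2.59% of all genes were called, 1.93% lower. Both were called under all 17 alternatives run for this comparison. Leaving out sham arrays changed neither value, and averaging probe sets did not change that of *Psmb7*. Of the 40 genes 35 had negative values, 10 did not overlap (7.94% of all genes) and 11 had an unadjusted p below 0.05 (15.2% of all genes). In caPI3K MI against dnPI3K MI hearts 4 were higher, where 4.23% of all genes were called, 2.92% higher: *Psmb7* (0.51 ± 0.08), *Psmb3* (0.28 ± 0.07), the lid subunit *Psmd8* (0.28 ± 0.07) and the alpha subunit *Psma1* (0.23 ± 0.07). In 11 of 40 the groups did not overlap (10% of all genes), and 11 had an unadjusted p below 0.05 (16.1% of all genes). *Psmb7* was called under all 17 alternatives, against 11 of 17 for *Psmd8*, 9 for *Psmb3* and 4 for *Psma1*. Over these alternatives the *Psma1* value ranged from 0.001 to 0.26. *Psmb7* was the single member called without dnPI3K MI replicate 1 and without caPI3K MI replicate 2. Without dnPI3K MI replicate 2 or replicate 3, 2 genes were called. In caPI3K MI against Ntg MI hearts 0 were called, as were 0% of all genes, and 1, *Psmd8*, had an unadjusted p below 0.05 (4.63% of all genes) and groups without overlap (3.62% of all genes). *Psmd8* read 11.99, 12.10, 12.02 and 12.07 in caPI3K MI hearts, against 11.93, 11.85, 11.80 and 11.90 in Ntg MI hearts and 11.71, 11.80, 11.65 and 11.91 in dnPI3K MI hearts. All 4 caPI3K MI arrays lay above both other groups.

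*Psme4* differed in sham hearts between dnPI3K and both other genotypes. It encodes PA200, a nuclear activator known in mice for the breakdown of acetylated histones in sperm cells. *Psme4* read 13.75, 13.68, 13.51 and 13.48 log2 units in caPI3K sham hearts. In dnPI3K sham hearts it read 12.80, 12.66, 12.97 and 12.91, against 13.50, 13.30, 13.30 and 13.58 in Ntg sham hearts. The dnPI3K sham arrays lay below all arrays of both other sham groups, and the Ntg and caPI3K sham arrays overlapped each other. Against Ntg sham the change was -0.59 ± 0.12, or 0.67-fold (adjusted p = 0.00923, limma). It was the only one of 40 called in this comparison, in which 1.14% of all genes were called (0.725% lower). It was also the one gene of 40 without overlap, against 5.6% of all genes, and 5 of 40 had an unadjusted p below 0.05 (10.8% of all genes).

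The 3 bright probe sets of *Psme4* gave similar values, -0.59, -0.57 and -0.67 for dnPI3K against Ntg sham and 0.77, 0.78 and 0.95 for caPI3K against dnPI3K sham. The dnPI3K change lost its call without arrays 415 to 418 (-0.50, adjusted p = 0.430), without dnPI3K sham replicate 2 (-0.53, adjusted p = 0.0658) and when all probe sets were averaged (-0.39, adjusted p = 0.272). In dnPI3K MI hearts *Psme4* read 12.89, 12.93, 13.39 and 13.40, so 2 arrays lay within the dnPI3K sham range and 2 within that of Ntg MI hearts (13.15, 13.33, 13.73 and 13.60). Its MI change in dnPI3K hearts was 0.32 ± 0.12 and not called (adjusted p = 0.103, limma); it was called after quantile normalization (0.41) and without dnPI3K MI replicate 1 (0.40). The promoter of *Psme4* is shown as the gene set apart by genotype; capitals mark the antioxidant core, which starts at position -7 and is read on the opposite strand.
*Psme4* promoter, chr11:30771685-30771784, plus strand: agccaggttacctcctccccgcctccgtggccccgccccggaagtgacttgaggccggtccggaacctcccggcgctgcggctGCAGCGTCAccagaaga

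Between the transgenic sham groups, caPI3K against dnPI3K, 6 of 40 genes were called, 3 higher and 3 lower, where 9.9% of all genes were called, 5.38% higher and 4.52% lower. An unadjusted p below 0.05 was found for 13 of 40 (21.3% of all genes). *Psme4* was higher by 0.77 ± 0.12, the ATPase *Psmc5* by 0.27 ± 0.08 and the alpha subunit *Psma4* by 0.20 ± 0.06 (adjusted p = 8.26e-05, 0.0416 and 0.0492, limma). *Psmc3* was lower at -0.37 ± 0.07, *Psmd4* at -0.36 ± 0.07 and *Psma7* at -0.23 ± 0.07 (adjusted p = 0.000992, 0.000776 and 0.0327, limma). *Psmd4*, a receptor for ubiquitin chains, read 12.04, 11.90, 11.98 and 12.00 in caPI3K sham hearts, against 12.34, 12.40, 12.41 and 12.22 in dnPI3K sham hearts. The groups did not overlap, and a second probe set gave -0.38. *Psmc3* read 13.00, 12.93, 12.96 and 12.98 in caPI3K sham hearts, with all 4 below the lowest of the dnPI3K sham arrays. In 11 of the 40 genes the groups did not overlap, against 16.8% of all genes.

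The 3 caPI3K sham arrays with Y-linked signal enter this comparison, and without them, with 1 caPI3K sham array left and assumed to vary like the others, 0 of 40 were called. The values without them were 0.65 for *Psme4*, -0.36 for *Psmc3* and -0.34 for *Psmd4*. Without arrays 415 to 418 the count was 3, the same as without dnPI3K sham replicate 1 or 2, or without caPI3K sham replicate 2 or 3. Against Ntg sham, 0 of 40 were called in caPI3K sham hearts, where 0.278% of all genes were called; 4 had an unadjusted p below 0.05 (11.2% of all genes). The groups did not overlap in 1 of 40, *Psmc3*, against 5.62% of all genes. *Psmc3* was called there without Ntg sham replicate 4 (-0.30, adjusted p = 0.0212).

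The immunoproteasome genes, 0 of 3 called in any comparison, held single arrays far above the rest of their group. *Psmb8* read 11.05, 9.39, 9.48 and 9.49 log2 units in Ntg MI hearts, against 9.33, 9.75, 9.75 and 9.50 in Ntg sham hearts. It read 9.78, 9.57, 9.56 and 10.73 in caPI3K MI hearts, against 9.45, 9.18, 9.24 and 10.51 in caPI3K sham hearts. In dnPI3K MI hearts it read 9.38, 9.40, 9.46 and 9.54, against 10.55, 9.72, 9.83 and 9.55 in dnPI3K sham hearts. A single array stood above its group in 4 of the 6 groups: Ntg MI replicate 1, caPI3K MI replicate 4, caPI3K sham replicate 4 and dnPI3K sham replicate 1.

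*Psmb9* was high on the same arrays, at 10.41, 10.31, 10.09 and 9.75 in that order, against 8.42 to 9.35 on the other 20 arrays. *Psmb10* read 11.84 on Ntg MI replicate 1, 11.53 on caPI3K MI replicate 4 and 11.71 on dnPI3K sham replicate 1, the highest of their groups, but 11.15 on caPI3K sham replicate 4, within its group's 10.96 to 11.19. In *Psmb8* the dnPI3K MI arrays nonetheless lay below all dnPI3K sham arrays and all caPI3K MI arrays. The MI changes in dnPI3K hearts were -0.47 ± 0.31, -0.29 ± 0.32 and -0.09 ± 0.14 for *Psmb8*, *Psmb9* and *Psmb10*, none called (adjusted p = 0.408, 0.670 and 0.777, limma). Their MI changes were 0.27 ± 0.31, 0.28 ± 0.32 and 0.11 ± 0.14 in Ntg hearts for *Psmb8*, *Psmb9* and *Psmb10*. Without Ntg MI replicate 1 these changes were -0.13, -0.10 and -0.05.

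**Figure D4:**
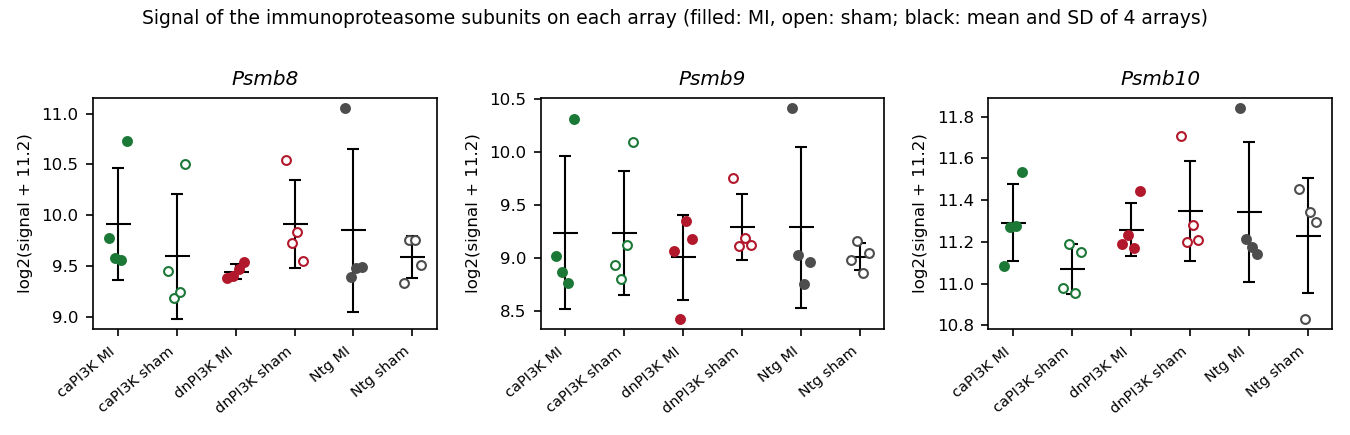
Signal of *Psmb8*, *Psmb9* and *Psmb10* on each array in log2(signal + 11.2); filled points are MI hearts, open points sham hearts, and the black marks the mean and SD of 4 arrays. For *Psmb8* and *Psmb9* a single array lies above the rest of its group in 4 of the 6 groups, and the dnPI3K MI and Ntg sham groups hold no such array.

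In newly built cores *Psmb8* takes the place of *Psmb5*, *Psmb9* that of *Psmb6* and *Psmb10* that of *Psmb7* in the core. The difference *Psmb10* minus *Psmb7*, set to 0 at its mean over the 24 arrays, was 0.24 to 0.57 in dnPI3K MI hearts, against -0.13 to 0.21 in dnPI3K sham hearts. The groups did not overlap, and *Psmb7* was the partner that fell. *Psmb8* minus *Psmb5* was -0.33 to -0.17 in dnPI3K MI hearts, against -0.03 to 0.78 in dnPI3K sham hearts, where replicate 1 gives the top value. Its groups did not overlap either, but in the opposite direction, with the MI hearts lower. *Psmb9* minus *Psmb6* was -0.51 to 0.36 in dnPI3K MI hearts, against -0.16 to 0.42 in dnPI3K sham hearts, and these overlapped. These are differences relative to a mean and not ratios of the proteins.

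*Psmb8* and *Psmb9* lie on chromosome 17 and were high on the same 4 arrays. The promoter of *Psmb9* is shown because the gene shares it with a neighbour; capitals mark a CCAAT box on the opposite strand.
*Psmb9* promoter, chr17:34187331-34187480, minus strand: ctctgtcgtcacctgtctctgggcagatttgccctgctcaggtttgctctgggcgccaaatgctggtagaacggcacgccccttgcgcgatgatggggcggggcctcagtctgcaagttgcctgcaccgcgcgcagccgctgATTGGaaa
*Psmb9* and the peptide transporter gene *Tap1* are read in opposite directions from start sites 226 bases apart, and their windows share 275 bases.

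A list of 15 tested genes covered class I presentation and interferon control, *Tap1* and *Nlrc5* among them. It also held *Ifi47*, *Igtp*, *Gbp2* and *Cd74*, which are not genes of class I presentation. Its deviation from the 24-array mean was 1.09 log2 units on Ntg MI replicate 1 and 0.97 on caPI3K MI replicate 4. It was 0.54 on caPI3K sham replicate 4 and 0.58 on dnPI3K sham replicate 1. On the other 20 arrays it ranged from -0.48 to 0.12. The 3 immunoproteasome genes deviated by 1.05, 0.81, 0.53 and 0.62 on these 4 arrays and by -0.37 to 0.05 on the rest. Of the 15 genes 0 were called after MI in each genotype, with 0, 0 and 2 at an unadjusted p below 0.05 in caPI3K, dnPI3K and Ntg hearts. Of all genes, 1.11%, 9.37% and 0.772% were called in the same order, and 12.1%, 21.9% and 12% had such a p.

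**Figure D5:**
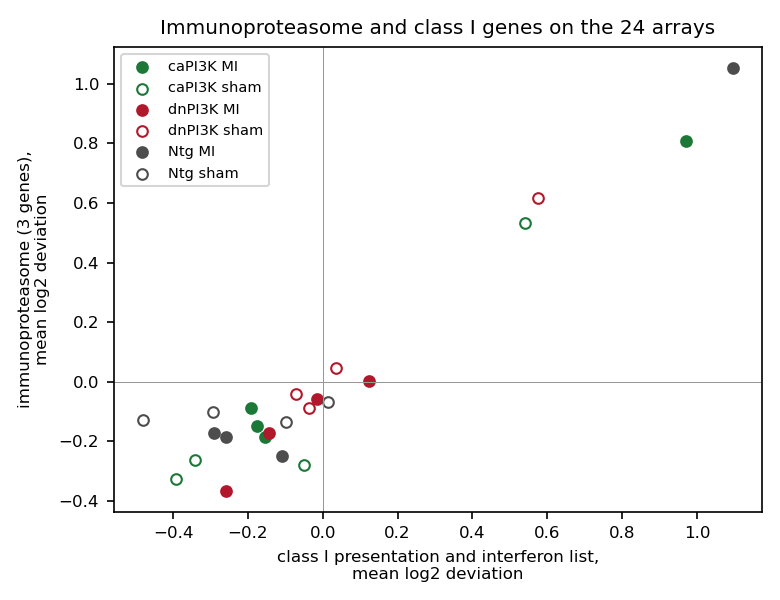
Mean deviation in log2 units of the 3 immunoproteasome genes (vertical) against that of 15 genes of class I presentation and interferon control (horizontal), 1 point per array; filled points are MI hearts and open points sham hearts. The same 4 arrays are high on both axes, at 0.53 to 1.05 and 0.54 to 1.09.

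Markers of leukocytes did not all follow. On the same 4 arrays, in the order above, the 12 macrophage markers deviated by 0.62, 0.46, -0.16 and -0.11, while dnPI3K MI replicates 3 and 4 reached 0.43 and 0.46 with immunoproteasome values of -0.06 and 0.00. The summed signal of the macrophage markers was 26599 to 43419 in Ntg MI hearts, 30021 to 39488 in caPI3K MI hearts and 30312 to 41780 in dnPI3K MI hearts, against 21566 to 33032, 21767 to 28105 and 23549 to 38404 in the sham hearts of the same genotypes. The 9 T and NK cell markers on the array summed to 321 to 885 in Ntg MI hearts, 311 to 739 in caPI3K MI hearts and 428 to 640 in dnPI3K MI hearts, against 501 to 621, 321 to 574 and 450 to 589 in the sham hearts. Between 1 and 6 of these 9 were above the 40th percentile of an array, 6 of them on Ntg MI replicate 1 and 5 on caPI3K MI replicate 4 and on dnPI3K sham replicate 1. *Cd4* was above it on 0 arrays and *Cd3d* on 2. The part of these cells in the immunoproteasome values was not tested.

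Genes that build or serve the proteasome were read from lists of the pathway. Of 5 assembly chaperones 1 fell in dnPI3K MI hearts, *Psmg1*, which helps to form the alpha ring, by 0.33 log2 units (adjusted p = 0.00523, limma), and their median was -0.09. Of 7 muscle ubiquitin ligases 1 fell, *Trim63*, by 0.43 (adjusted p = 0.0121). Of 9 subunits of the COP9 signalosome, a complex related to the 19S lid, 1 fell, *Cops6*, by 0.35 (adjusted p = 0.000457), with a median of -0.09. Among 7 proteasome-associated factors, 9 shuttle factors with the p97 segregase, and 5 transcription factors of proteasome genes, *Nfe2l1* and *Nfe2l2* included, 0 were called, with 1, 2 and 0 at an unadjusted p below 0.05. The lowest p of each was that of *Sem1* (-0.18), *Zfand5* (-0.21) and *Nfyb* (-0.26). In Ntg and caPI3K hearts 0 genes of these 6 lists were called after MI; of 42 genes, 4 in caPI3K and 3 in Ntg hearts had an unadjusted p below 0.05, against 12.1% and 12% of all genes. In dnPI3K hearts 3 of the 42 were called and 11 had such a p, against 9.37% and 21.9% of all genes. In caPI3K and Ntg hearts the lowest p of the 42 belonged to *Asb2*, a muscle ligase subunit, at -0.26 ± 0.07 and -0.22 ± 0.07 (adjusted p = 0.0801 and 0.185, limma).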

How the data were processed

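Total RNA of mouse hearts was read on 24 Affymetrix arrays, 4 per group. The deposited values are linear signal intensity per probe set, made by the authors with MAS5, per the submitters' processing notes; neither its version nor its scaling target is given in the sources used here. The trimmed mean (2 percent cut at each end) of every array was 500.003 to 500.004. Array medians were 103 to 151 signal units. Precision is limited by 4 arrays per group.

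Of 45101 probe sets, 64 controls were left out, 34945 name 1 gene, 932 name several and 9160 are not in the annotation used. Values were taken as log2(intensity + 11.2). Probe sets above their array's 40th percentile on at least 4 arrays were kept (33061), and the brightest per gene was used, giving 14763 genes. A 6-group model was fitted with limma 3.58.1 in R 4.3.3 (lmFit, eBayes with an intensity trend, 18 residual degrees of freedom), with Benjamini-Hochberg adjustment over all genes and a threshold of 0.05. Comparisons were MI against sham in each genotype, genotypes within sham and within MI hearts, and differences of MI changes, 12 in all. The code was tested on simulated data.

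Members named were the catalytic subunits and their inducible partners, the activators, *Psmd2*, *Psmd4* and *Psmd14*, the called genes of each comparison (at most 12), and the 2 highest and 2 lowest of each MI comparison; of other lists, called genes (at most 6) and the lowest p. *Psma6*, *Myh6*, *Xist*, *Tap1*, *Nlrc5*, *Nfe2l1*, *Nfe2l2*, *Cd4* and *Cd3d*, and genes named for an unadjusted p or for missing overlap, were chosen after their values were seen. The members and lists were chosen with earlier results of these data known. Promoters were read from a RefSeq table of assembly GRCm38.p6. The result for 1 promoter motif is not reported here.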

Additional observations from a re-analysis of the deposited data

Results flagged for a closer look

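In 150 sets of 4 arrays, each a gene in a group, 12 held an array far from the other 3 (its gap to the nearest, over the whole range, passed Dixon's critical value); chance gives about 5 percent of sets. Of the immunoproteasome genes, *Psmb8* read 11.05 log2 units, *Psmb9* 10.41 and *Psmb10* 11.84 on Ntg MI replicate 1. *Psmb9* read 10.31 on caPI3K MI replicate 4 and 9.75 on dnPI3K sham replicate 1, where *Psmb10* read 11.71. All of these lay above the rest of their group.

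Of the standard core genes, *Psmb5* read 12.74 on Ntg sham replicate 2 and *Psmb1* 12.85 on caPI3K sham replicate 1, above their groups. Of the ATPases, *Psmc3* read 13.04 on caPI3K MI replicate 2 and *Psmc5* 11.9 on dnPI3K MI replicate 1, above their groups, while *Psmc2* read 12.79 on dnPI3K MI replicate 1, below its group. *Psme3* read 10.21 on dnPI3K sham replicate 2, below its group.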

How the results depend on the processing

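Alternatives changed the normalization, pseudocount, dim filter, probe set rule, model or arrays, 1 at a time; the second-brightest probe set was chosen after seeing the data. The count of proteasome genes called after MI in dnPI3K hearts, 11, became 7 after quantile normalization (6 lower, 1 higher), 7 with the mean over all probe sets, 7 with no intensity trend, 6 without sham arrays 415 to 418, 6 with only the groups compared, 13 when array numbers under 1000 had their own term, and 6 to 10 when 1 replicate was left out. *Psmb1* reversed there, to 0.21 with the mean over probe sets and 0.16 with the second-brightest one. For caPI3K minus dnPI3K MI changes the count went to 1 with only the groups compared. In dnPI3K against Ntg sham hearts, the count of 1 became 0 with the mean over probe sets and 0 without arrays 415 to 418, and was 0 to 1 with a replicate left out. In caPI3K against dnPI3K sham hearts, 6 became 3 without arrays 415 to 418, 3 with no trend and 0 without the arrays with Y-linked signal, and 3 to 7 with a replicate left out. In caPI3K MI against dnPI3K MI hearts, 4 became 1 with no trend and 1 with only the groups compared, and 1 to 4 with a replicate left out. MI in Ntg hearts and caPI3K against Ntg sham hearts gave 0 to 1. The causes were not tested, and the share of all genes called under each alternative is not given. Of the values of single genes under alternatives, 2765 kept sign and side of the threshold, 129 lost the threshold and 14 passed it with the same sign, and 2 called values reversed. In another 220 the sign changed where neither value was called. No paired analysis was possible. The sample titles give a number whose meaning is not stated, and no replicate number shared between groups.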
